A study of Mus musculus with 5 samples.

Results

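Effector and resident CD8 T cells were examined in droplet single-cell RNA profiles of kidneys of C57BL/6j mice. All 5 animals had been given pristane, an oil that brings on a disease like lupus. Treatment was saline in 2 mice and, in 3 mice, transfer of gut microbes from MRL/MpJ mice (faecal microbiota transplantation, FMT). Age, sex, dose and time of treatment are not given in the sources used here, and the letter codes in the sample titles differ between the groups, so that a batch following those codes and the treatment cannot be told apart. A cell counted as a member when it had at least 200 genes, under 50% mitochondrial UMIs (unique molecular identifiers, each standing for 1 captured RNA molecule), at least 2 UMIs of the CD3 genes Cd3d, Cd3e and Cd3g, at least 1 of the co-receptor genes Cd8a and Cd8b1, none of Cd4 or of the B cell gene Cd79a, at least 2 of Cxcr6 and Ccl5 together, and none of Lef1 or Ccr7. This gave 577 cells of the 1266 CD8 T cells, the 2961 T cells and the 26237 barcodes in the files. The rule read these 11 genes, so their levels describe the choice and are not results.

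CD8 T cells leave the thymus as naive cells that circulate between blood and lymph nodes by means of Ccr7. After meeting antigen they become effector and memory cells that carry granzymes and perforin, which kill target cells, and secrete the chemokine Ccl5. Some memory cells settle in organs, lose the exit factor Klf2 and its target S1pr1, and hold themselves in place with Cxcr6, the integrins Itgae and Itga1, and Cd69. In lupus nephritis, CD8 T cells gather around tubules and glomeruli, and many carry granzyme K.

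The members numbered 109 and 70 in saline mice 1 and 2, and 246, 104 and 48 in FMT mice 1 to 3. Their median depth was 2549 to 4238 UMIs per cell, and the summed members of a mouse held 176516 to 1106948 UMIs. No member barcode occurred in more than 1 library. The submitters' labels name epithelial cells of the renal tubule, whereas every member carries CD3 transcripts by the rule, and 67 members had no Cd8a UMI and 42 no Cd8b1 UMI. Ccl5 was found in 570 of the 577 members and Cxcr6 in 406. At the edge of the rule, 9 members had exactly 2 UMIs of Cxcr6 and Ccl5, and 3 other CD8 T cells without Lef1 or Ccr7 had 1.

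Several markers of other lymphocytes were low in the summed members, whereas tubule genes and, in FMT mouse 3, myeloid genes were not. The defining B cell gene Ms4a1 stood at 0 to 2.47 CPM (counts per 1000000 UMIs of the summed members), and the natural killer (NK) receptor genes Klra4 and Klra8 had 0 UMIs in 577 cells, which allows up to 1.23 CPM in their sum (3 counts). Il17a and Blk were also at 0, and Foxp3, the regulatory T cell factor, reached 3.61 CPM. Other NK markers were not absent, with Klrb1c at 4.94 to 36.0 CPM and Ncr1 at 0 to 11.7 CPM in the members. In NK cells these averaged 875 and 946 CPM. Of the 12 listed innate-like and gamma-delta T cell genes, 11 were in the files, and 4 of these were at 0. The 13 myeloid genes summed to 273 to 952 CPM in 4 mice but to 49514 CPM in FMT mouse 3, where 1 member had at least 10 UMIs of S100a8, S100a9 and Lyz2. In FMT mouse 1, 7 members passed that mark. Without these 8 cells the myeloid sums ran from 273 to 573 CPM. Transcripts of proximal tubule cells, the most common cells of the kidney, summed over 17 genes to 4302 and 3199 CPM in the saline mice and to 17135, 5528 and 9223 CPM in the FMT mice. All 3 FMT mice lay above both saline mice in this foreign signal. Without the 8 cells the tubule sum was 16653 CPM in FMT mouse 1 and 10798 CPM in FMT mouse 3. The largest member of FMT mouse 3 held 26027 of its 176516 UMIs. Unless stated, CPM values of FMT mouse 3 below keep the myeloid cell in the total, which lowers the values of genes it lacks.

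Compared with naive CD8 T cells of the same kidneys, which were defined by a UMI of Lef1 or Ccr7 and the absence of Cxcr6 and Ccl5, the members showed the genes of killing and of inflammatory signalling. The naive cells numbered 355 and were deeper, with a median of 5040 to 6691 UMIs. Because the rule chose both classes by expression, the contrast is given without a test. Gzmk, which encodes granzyme K, was at 242 and 276 CPM in the saline members and at 178, 358 and 232 CPM in the FMT members, and it had no UMI in any naive CD8 cell, which allows up to 1.40 CPM there. Klrk1, the gene of the activating receptor NKG2D, was at 121, 135, 158, 184 and 153 CPM in the 5 mice and likewise at 0 in naive cells. The chemokine gene Ccl4 was at 610, 177, 1062, 165 and 527 CPM, against at most 2.89 CPM in naive cells.

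The 15 genes highest over naive cells, among genes of at least 100 CPM that were higher in all 5 mice and were not in the rule, also included Gzma, Gzmb, Ccl3, Xcl1, Ifng, Cxcr3, S100a4, S100a6, Ctla2a, Fgl2, Serpina3g and Cish. Ifng, which encodes interferon gamma, averaged 117 CPM in members (SD 58.7, n = 5) and 0.700 CPM in naive cells. Cxcr3, the receptor that guides T cells to inflamed tissue, averaged 301 CPM (SD 99.7) against 7.46 CPM. The 15 genes most reduced against naive cells included Dapl1 and Satb1. Dapl1 averaged 13.6 CPM in members and 345 CPM in naive cells. Tcf7, which maintains the naive and stem-like state, averaged 79.8 against 375 CPM, and Klf2 averaged 475 against 1912 CPM. These genes were lower in the members of all 5 mice.

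Promoters of the genes that set the members apart were read for 3 motifs, in windows from 250 bases before to 50 after the start in RefSeq's GRCm38.p6 annotation. RUNX factors, among them Runx3 of the CD8 lineage, bind TGTGGTT. These letters, on either strand, were in 6 of the 15 windows (40%) of the 14 matched genes highest over naive cells, namely Gzma, Gzmb, Xcl1, Klrk1, Cxcr3 and S100a6. They were in 5.27% of all 32851 windows and in 0 of 18 windows of the 13 matched genes most reduced against naive cells. The T-box motif AGGTGTGA was in 0 of the 15 windows and in 1.28% of all windows. The FOXO motif GTAAACA was in 0 of the 15 windows, in 2 of the 18 windows of the reduced genes (Dapl1 and Tcf7) and in 3.65% of all windows. None of the motifs overlaps another in the 4 sequences below, and a match describes letters, not binding. The 250 bases before the start are shown 5′ to 3′ on the gene's strand for 4 of the 6 genes with the RUNX letters, which are in capitals. Ccl4 and Gzmk, also among the 15 genes, were not among these 6.
Gzma, chr13:113100982-113101231, minus strand: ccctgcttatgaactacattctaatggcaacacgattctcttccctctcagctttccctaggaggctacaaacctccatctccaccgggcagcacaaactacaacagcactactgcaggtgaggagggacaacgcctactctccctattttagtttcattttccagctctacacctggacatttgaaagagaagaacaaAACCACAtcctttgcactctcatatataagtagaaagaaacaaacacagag
Gzmb, chr14:56262335-56262584, minus strand: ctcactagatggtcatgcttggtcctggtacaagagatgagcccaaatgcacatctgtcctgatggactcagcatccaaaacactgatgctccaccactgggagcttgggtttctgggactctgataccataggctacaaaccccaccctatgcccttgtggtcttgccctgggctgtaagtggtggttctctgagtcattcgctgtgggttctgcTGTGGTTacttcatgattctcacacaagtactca
Xcl1, chr1:164935523-164935772, minus strand: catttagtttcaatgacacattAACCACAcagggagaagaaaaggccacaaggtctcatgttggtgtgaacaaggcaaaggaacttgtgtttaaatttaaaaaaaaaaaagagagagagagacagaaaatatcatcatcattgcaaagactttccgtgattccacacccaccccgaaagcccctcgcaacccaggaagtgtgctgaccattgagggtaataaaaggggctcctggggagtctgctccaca
Klrk1, chr6:129623865-129624114, minus strand: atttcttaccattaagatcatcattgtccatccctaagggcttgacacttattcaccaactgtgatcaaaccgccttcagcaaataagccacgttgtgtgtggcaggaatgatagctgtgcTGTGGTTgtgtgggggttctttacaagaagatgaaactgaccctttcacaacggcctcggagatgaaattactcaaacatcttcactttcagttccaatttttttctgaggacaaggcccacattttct
The match ended 45 bases before the start in Gzma, 28 in Gzmb, 222 in Xcl1 and 123 in Klrk1. In Gzma and Xcl1 it lay on the opposite strand and reads AACCACA. Runx3 itself was at 217 and 204 CPM in the saline members and at 194, 174 and 198 CPM in the FMT members, against 98.8 CPM on average in naive CD8 cells.

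**Figure D1:**
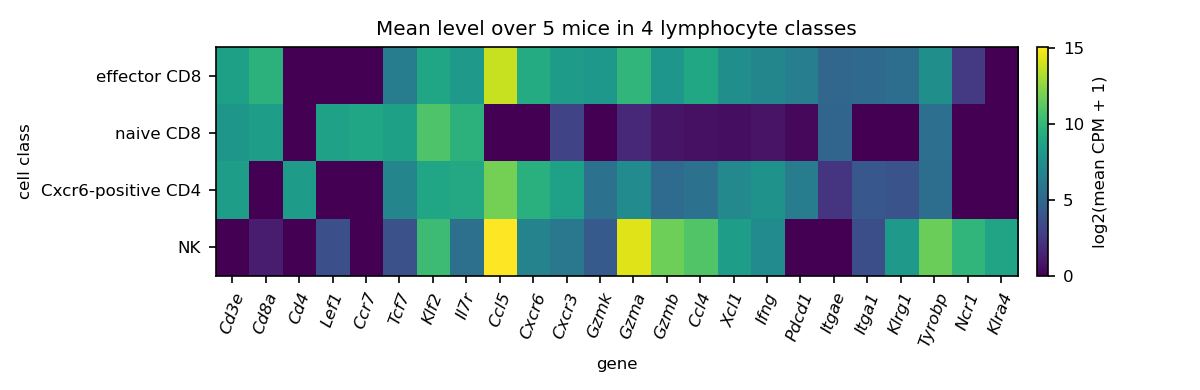
Mean level over the 5 mice, as log2(mean CPM + 1) in colour, of 24 genes (columns) in effector and resident CD8 T cells and in 3 other lymphocyte classes (rows). Gzmk, Pdcd1 and Itgae are brighter in the members than in NK cells, whereas Klra4 is at 446 CPM in NK cells and at 0 in the members. Cd3e, Cd8a, Cd4, Lef1, Ccr7, Ccl5, Cxcr6 and Ncr1 were used to choose classes, and the CD4 mean includes 2 cells of FMT mouse 3.

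The nearest CD4 class, T cells with Cd4 and without CD8 or Foxp3 UMIs that met the same thresholds on Cxcr6, Ccl5, Lef1 and Ccr7 (here Cxcr6-positive CD4 cells, although Ccl5 alone could admit them), numbered 210 cells but only 2 in FMT mouse 3, which was left out of this contrast. Cd160, an inhibitory receptor gene, was at 143, 117, 120.2 and 76.4 CPM in the CD8 members of the 4 mice and at 28.4, 3.16, 3.86 and 0 CPM in the CD4 cells. Gzmb averaged 272 CPM against 46.5 CPM, and Gzmk 263 CPM against 62.7 CPM. Ifitm1 averaged 8.02 against 210 CPM, the co-stimulator Icos 32.1 against 117 CPM, and the chemokine receptor Ccr2 63.2 against 174 CPM. The members were thus richer in granzyme transcripts and poorer in Icos and Ccr2 in each of the 4 mice. The haemoglobin genes Hba-a1, Hba-a2 and Hbb-bs also led the list, and for Hba-a1 the 4 values ran from 0.903 to 3439.6 CPM in the members, with at most 63.8 CPM in the CD4 cells. Red cell RNA therefore differed between these sums by mouse, and its part in the other genes was not tested.

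NK cells share the killing genes with these CD8 T cells but lack CD3. In 154 NK cells, defined by at least 2 UMIs of Ncr1 and Klrb1c without CD3 or Cd79a, Gzma ranged from 16342 to 22219.5 CPM over the mice and Prf1, the perforin gene, from 348 to 685 CPM. In the members Gzma ranged from 171 to 2931 CPM and Prf1 from 15.4 to 62.3 CPM. Gzmk went the other way, at an average of 257 CPM in members and 17.9 CPM in NK cells. Pdcd1, the gene of the checkpoint receptor PD-1, averaged 84.4 CPM in members and had no UMI in any NK cell, which allows up to 4.07 CPM. The members thus held less Gzma and Prf1 and more Gzmk and Pdcd1 than NK cells in each of the 5 mice.

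**Figure D2:**
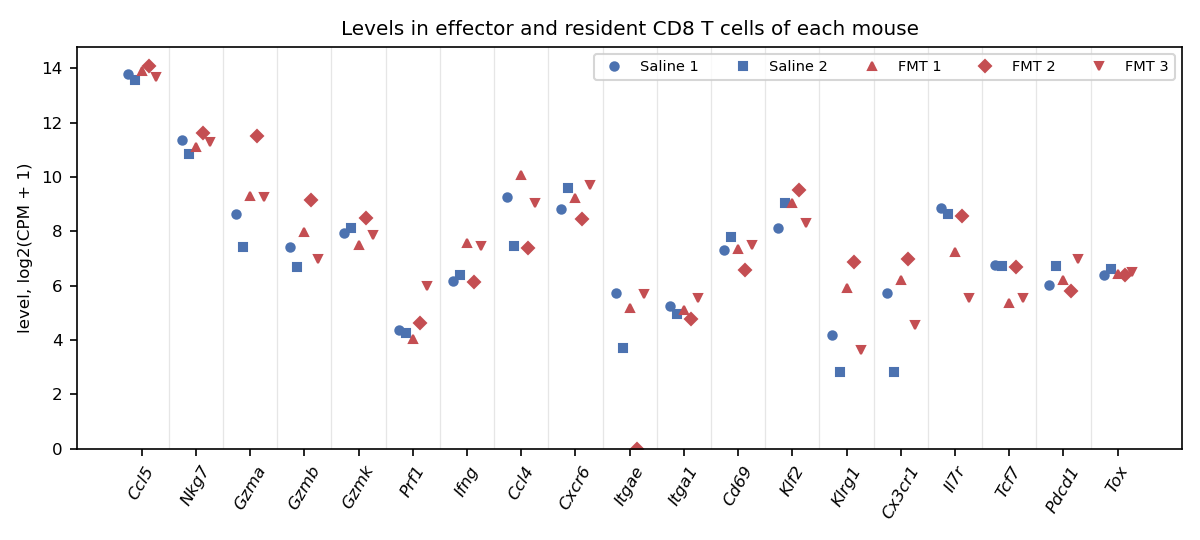
Level of 19 genes, as log2(CPM + 1), in the summed effector and resident CD8 T cells of each mouse (1 symbol per mouse, saline in blue and FMT in red). FMT mouse 2 has the highest Gzma, Gzmb, Klrg1 and Cx3cr1 and no UMI of Itgae, and the 2 lowest Il7r values belong to FMT mice 3 and 1.

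The members were not alike in the 5 mice, and FMT mouse 2 stood apart in the genes of circulating effector cells. Gzma was at 395 and 171 CPM in the saline mice and at 633, 2931 and 612 CPM in the FMT mice, so that the groups did not overlap but most of the distance came from FMT mouse 2. Klrg1, a receptor of late effector cells, was at 17.3 and 6.00 CPM against 59.6, 114.6 and 11.3 CPM. Cx3cr1, a receptor of blood-borne effector cells, was at 51.9 and 6.00 CPM against 73.2, 124 and 22.7 CPM. FMT mouse 2 was the highest and saline mouse 2 the lowest for all 3 genes. The 12 NK cell genes, which include Gzma, summed to 808 and 507 CPM against 1318, 3208 and 1513 CPM. Klra4 and Klra8 were at 0, whereas Klrb1c was at 4.94 to 36.0 CPM and Ncr1 at 0 to 11.7 CPM. The part of the NK cell genes in this order was not tested. Without the 8 members with myeloid UMIs the sums in FMT mice 1 and 3 were 1011 and 897 CPM, the latter 1 cell apart from the full sum and close to saline mouse 1.

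The residency genes Itgae, Cd69 and Itga1 each had their lowest value in FMT mouse 2, for Itga1 by a small margin. Itgae, which encodes the integrin CD103, was at 51.9 and 12.0 CPM in the saline mice and at 35.2, 0 and 51.0 CPM in the FMT mice, where the 0 allows up to 7.16 CPM. Cd69 was at 158 and 222 CPM against 161, 95.5 and 181 CPM. Itga1, the integrin CD49a, was at 37.1 and 29.98 CPM against 33.4, 26.3 and 45.3 CPM. All 3 genes overlapped between the groups, and Itgae rests on 73 UMIs in all. Cxcr6 belongs to the rule, so the share of members with a Cxcr6 UMI only describes the choice, at 67.0% and 78.6% in the saline mice and 75.6%, 53.8% and 75.0% in the FMT mice.

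Il7r, the receptor for the survival cytokine interleukin 7, varied over a wide range. It was at 462 and 393 CPM in the saline mice and at 149, 380 and 45.3 CPM in the FMT mice. Tcf7 was at 106 and 105 CPM against 39.7, 103 and 45.3 CPM. FMT mice 1 and 3 were thus low in both genes, and FMT mouse 2 was close to the saline mice. Of the checkpoint genes, Tox was at 83.5 to 95.9 CPM over the 5 mice, Pdcd1 at 54.9 to 124.6 CPM and Lag3 at 17.3 to 51.0 CPM.

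Within the members, cells with Cxcr6 and cells without it differed in Klf2, the exit factor, and in Cx3cr1, Ccl4 and Xcl1. For this split, cells were thinned to 1500 UMIs each and the 8 members with myeloid UMIs were left out, which left 279 cells with a Cxcr6 UMI and 251 without. The split uses a gene of the rule and single cells, so it is a description. Klf2 was found in 15.1% of the cells with Cxcr6 and in 47.4% of those without, with the same direction in each of the 5 mice. Cx3cr1 was found in 2.15% against 10.4%, also lower with Cxcr6 in all 5 mice. Ccl4 was found in 45.2% against 24.3%, and Xcl1, which recruits cross-presenting dendritic cells, in 22.2% against 13.9%, both higher with Cxcr6 in all 5 mice. The lineage gene Cd8b1, itself in the rule, was in 83.9% against 68.5%, again higher with Cxcr6 in all 5 mice. Tyrobp, an adaptor gene of NK and myeloid receptors, was in 1.43% against 5.18%, though not lower in every mouse. The part of less certain CD8 cells in this split was not tested.

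Granzyme genes did not separate as evenly along Cxcr6. Gzma was found in 8.24% of cells with Cxcr6 and 17.9% without, but saline mouse 2 had the opposite order. Gzmk, at 32.6% against 27.5%, and Gzmb, at 21.9% against 19.5%, differed in order between mice. Over all UMIs the split was another, with 401 cells with Cxcr6 and 168 without. Of the latter, only 15 came from saline mouse 2 and 11 from FMT mouse 3. In this split Id2, a factor that supports effector and resident fates, averaged 772 CPM in cells with Cxcr6 and 347 CPM in the rest. Cd226, an activating receptor gene, averaged 144 against 56.8 CPM. The cells without Cxcr6 also held more of the mitochondrial gene mt-Nd4, at 3707 against 1905 CPM. The part of mitochondrial content in this split was not tested.

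**Figure D3:**
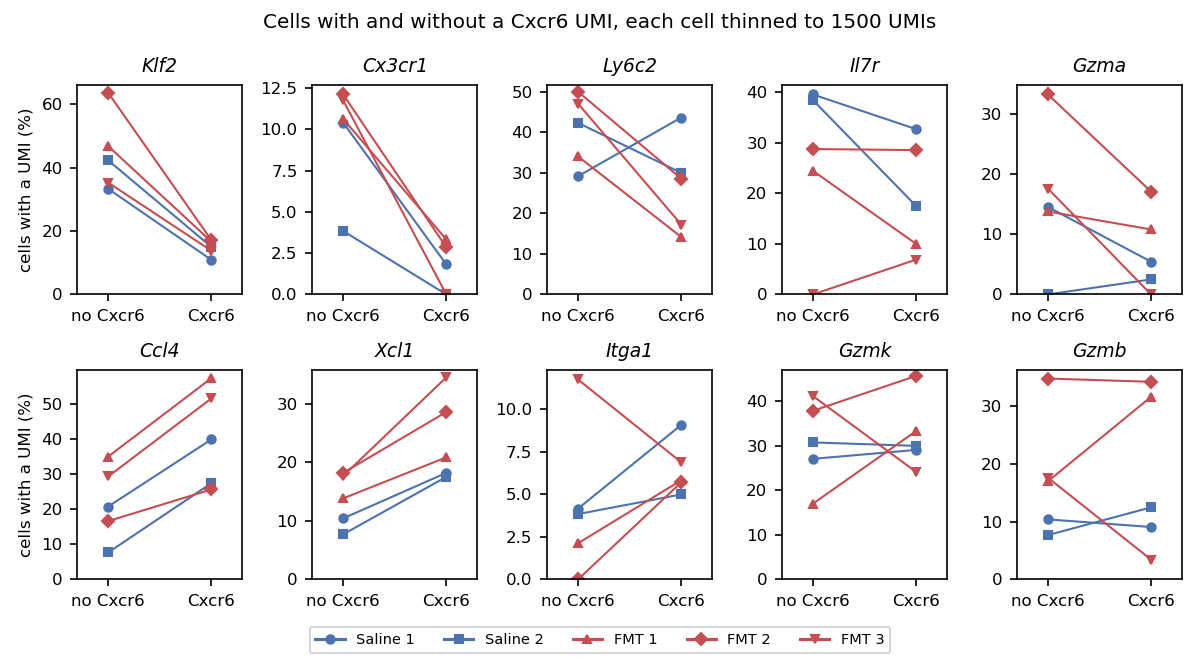
Share of effector and resident CD8 T cells (%) with at least 1 UMI of each of 10 genes, in cells without and with a Cxcr6 UMI after thinning every cell to 1500 UMIs (1 line per mouse, saline in blue and FMT in red). The lines of Klf2 and Cx3cr1 fall towards Cxcr6 in all 5 mice and those of Ccl4 and Xcl1 climb in all 5, whereas those of Gzmk and Gzmb cross.

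A few members carried Tyrobp and Fcer1g, adaptor genes of NK and myeloid receptors. With the 8 myeloid members left out, 25 of 569 members had at least 2 UMIs of the pair and 512 had none. The 25 cells also held Ncr1 and Klrb1c of NK cells, at an average over mice of 119.8 and 175 CPM (each higher in 3 of 5 mice), and Spi1 and Csf1r of myeloid cells, at 233 and 140.4 CPM. In members without either adaptor gene, Ncr1 had no UMI and Csf1r averaged 1.85 CPM. Single droplets with 2 cells were not separated from single cells here, and their part in this set was not tested.

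The share of effector and resident cells within the CD8 compartment was much the same in all mice. They made up 48.2% of CD8 T cells in saline mouse 1 (109 of 226, exact 95% Clopper-Pearson interval 41.6 to 55.0) and 42.4% in saline mouse 2 (70 of 165, 34.8 to 50.3). In FMT mice 1 to 3 the share was 47.3% (246 of 520), 40.9% (104 of 254) and 47.5% (48 of 101). The difference of the group means was −0.07 percentage points (2-sided exact permutation p = 1). The lowest p that 5 mice in these groups can reach is 0.1, so this test cannot show that the shares are alike. Intervals cover counting error only.

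Relative to all T cells the share was 18.3% and 14.9% with saline and 24.2%, 16.2% and 20.3% with FMT, a difference of 3.65 points (exact permutation p = 0.4). Of all kept kidney cells it was 2.08% and 2.14% against 3.90%, 2.12% and 1.68% (exact permutation p = 0.9). FMT mouse 1 was the highest in both measures, and the groups overlapped. Shares of kept cells depend on how the tissue was dissociated.

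The balance between CD8 and CD4 cells of the Cxcr6 and Ccl5 type did not overlap between the groups. Members made up 61.2% (109 of 178) and 56.0% (70 of 125) of the members and the Cxcr6-positive CD4 cells together in saline mice. They made up 82.6% (246 of 298), 76.5% (104 of 136) and 96.0% (48 of 50) in FMT mice. The difference was 26.4 points (exact permutation p = 0.1, the smallest that 2 against 3 mice can give), and all 3 FMT mice lay above both saline mice. With the rule applied to cells thinned to 1500 UMIs it was 19.1 points.

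Both parts of the ratio are given here. Cxcr6-positive CD4 cells took 11.6% and 11.7% of T cells with saline. With FMT they took 5.12%, 4.98% and 0.847%, a difference of −7.99 points (exact permutation p = 0.1). All CD8 T cells together were 38.0% and 35.0% of T cells against 51.2%, 39.5% and 42.8% (exact permutation p = 0.2). These 3 shares were chosen after their values had been seen, and none of the p-values can fall under 0.05 with 5 mice. Fewer CD4 cells and fewer CD4 cells with a Cxcr6, Ccl5 or Cd4 UMI cannot be told apart in such shares.

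**Figure D4:**
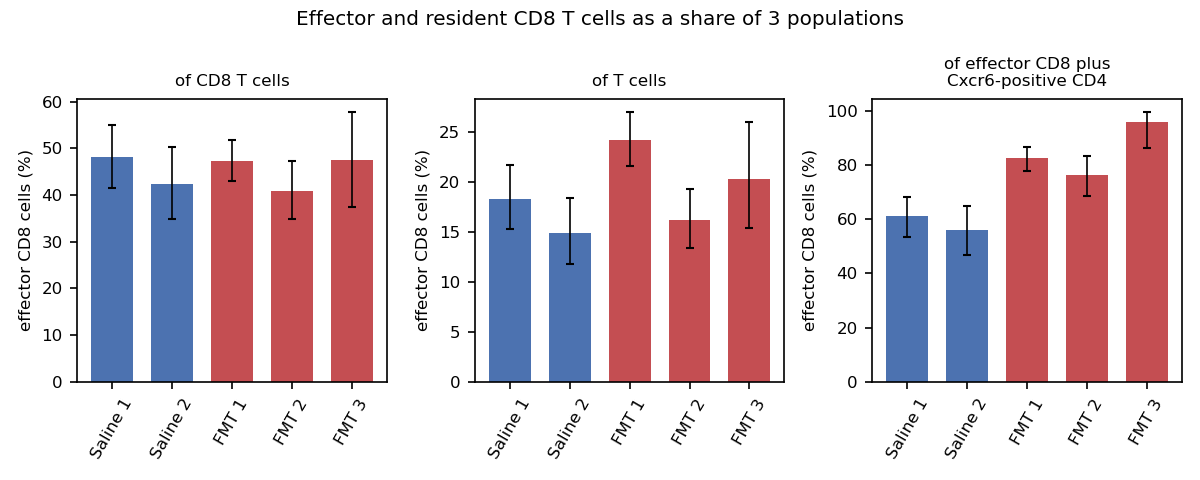
Effector and resident CD8 T cells as a percentage of CD8 T cells, of T cells, and of the members plus Cxcr6-positive CD4 cells (left to right), with 1 bar per mouse and exact 95% binomial intervals. The first 2 panels overlap between saline (blue) and FMT (red), and in the third the FMT mice stand at 76.5% to 96.0% against 56.0% and 61.2%.

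No share of members with a single effector gene could pass the test, since the smallest exact permutation p with 2 against 3 mice is 0.1. Of 10 subset genes in thinned cells, Gzmb alone had groups that did not overlap, at 9.71% and 10.61% in saline mice. In FMT mice it was in 24.0%, 34.7% and 10.64% of members (p = 0.2 in the exact permutation test and 0.857 after Benjamini-Hochberg adjustment over the 10 genes). Saline mouse 2 and FMT mouse 3 were thus nearly level. By level, groups did not overlap for 10.8% of all genes on the higher side and 10.4% on the lower side. B cells, which should lack Gzmb, showed it in 0.179% at the same depth. Without thinning the Gzmb shares were 22.9% and 17.1% against 35.0%, 38.5% and 16.7%, and the groups overlapped. Gzmk was in 28.2% and 30.3% of thinned members against 24.0%, 40.6% and 23.4%, with the groups overlapping. Klrg1 and Mki67, the proliferation marker, stayed at or under 12.9% in every mouse, and for all 10 genes the adjusted p was 0.857 or 1. Mki67 overlapped in thinned cells but not without thinning, at 6.42% and 5.71% against 4.07%, 2.88% and 2.08% (exact permutation p = 0.1).

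Across genes, no difference between FMT and saline passed in the members. The edgeR quasi-likelihood test on UMIs summed per mouse called 0% of 5359 genes at an adjusted p under 0.05, 387 had an unadjusted p under 0.05, and DESeq2 called 2. Without FMT mouse 2 edgeR called 83 genes, 81 higher and 2 lower in FMT, and 66 of the 83 were at least 5 times higher in proximal tubule cells. Without the filter on low counts it called 259, of which 171 were such tubule genes. Of the 10 genes named by smallest p on the higher side, 9 were at least 5 times higher in proximal tubule cells than in the members. None of the 10 on the lower side was, and these included Zfp36l2, Cxcr4, Ddit4 and Gpr65. Tmem106b, also lower, was nevertheless as high in tubule cells, at 70.1 CPM, as in the members, at a mean of 68.6 CPM. Groups did not overlap for 10.8% of all genes on the higher side and for 10.4% on the lower side, the background for every such statement below.

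Zfp36l2, whose product binds AU-rich messenger RNAs and speeds their breakdown, was lower in the members of every FMT mouse. It was at 647 and 657 CPM in the saline mice and at 323, 148 and 266 CPM in the FMT mice. Its log2 fold change of FMT over saline was −1.43 (SE 0.30, edgeR adjusted p = 0.363), with both saline mice above all 3 FMT mice. Without FMT mouse 2 it was −1.17 with an edgeR adjusted p of 0.0371. In naive CD8 cells Zfp36l2 was at 211 and 192 CPM against 171, 114 and 212 CPM, and in Cxcr6-positive CD4 cells at 564 and 706 CPM against 201 and 127 CPM in FMT mice 1 and 2. The test of the difference between the members' change and that of naive cells gave −1.08 (SE 0.31, edgeR adjusted p = 1). Against CD4 cells it gave 0.42 (SE 0.27, edgeR adjusted p = 0.908). No difference between the classes was thus shown for Zfp36l2 (ENSMUSG00000045817, chromosome 17).

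Cxcr4, the receptor for the stromal chemokine Cxcl12, was at 56.8 and 66.0 CPM in saline mice and at 19.9, 16.7 and 22.7 CPM in FMT mice. Its log2 fold change was −1.69 (SE 0.33, edgeR adjusted p = 0.342), and the groups did not overlap. In Cxcr6-positive CD4 cells Cxcr4 was at 46.1 and 44.3 CPM against 19.3 and 0 CPM in FMT mice 1 and 2. This 0 allows up to 20.1 CPM. In naive CD8 cells it was at 37.6 and 36.9 CPM against 50.2, 2.54 and 63.6 CPM. In the members Ccr2, which guides cells to inflamed tissue, was at 86.5 and 83.9 CPM against 29.8, 52.5 and 34.0 CPM (−1.19, SE 0.33, edgeR adjusted p = 0.464). Cxcr3 was at 326 and 459 CPM against 244, 279 and 198 CPM. These 3 of the 9 tested chemokine and receptor genes lay lower in every FMT mouse, but over the list 5 of 9 were higher, 0 passed and the median was 0.43. Without FMT mouse 1 the median was −0.20, and without saline mouse 1 it was 1.08. The inflammatory chemokine gene Ccl4 overlapped, at 610 and 177 CPM in saline mice and at 1062, 165 and 527 CPM in FMT mice.

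Glucocorticoid targets and brakes of the growth kinase complex mTORC1 included several genes whose groups did not overlap. The list draws on earlier results of these data and includes Zfp36l2 and Cxcr4, so it is not independent of them. Of 16 genes 13 were tested, 10 were lower in FMT, 0 passed and the median was −0.75, against −0.01 over all genes. Groups did not overlap for 7 of the 13 on the lower side and for 1 on the higher side. Klf9 had the largest change towards FMT among the 3 that were higher. Ddit4, an inhibitor of mTORC1, was at 74.1 and 63.0 CPM in saline mice and at 27.1, 26.3 and 34.0 CPM in FMT mice (−1.33, SE 0.30, edgeR adjusted p = 0.407). In Cxcr6-positive CD4 cells it was at 113 and 114 CPM against 27.0 and 67.0 CPM in FMT mice 1 and 2. In NK cells it was at 92.7 and 95.9 CPM against 30.2, 19.2 and 62.0 CPM. In naive CD8 cells it was at 23.1 and 29.6 CPM against 15.2, 7.61 and 21.2 CPM. In the members Pik3ip1, which restrains PI3 kinase, was at 64.2 and 66.0 CPM against 26.2, 26.3 and 34.0 CPM. Tsc22d3, a classic glucocorticoid target, was at 363 and 537 CPM against 275, 122 and 295 CPM, and Txnip at 519 and 756 CPM against 375, 432 and 346 CPM. Dusp1 overlapped, at 153 and 189 CPM against 207, 90.7 and 289 CPM.

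Proton-sensing receptors report extracellular acid to the cell. All 3 tested members of this list of 4 were lower in FMT, by a median of −1.16, and 0 passed. Gpr65 was at 168 and 156 CPM in saline mice and at 55.1, 62.1 and 107.6 CPM in FMT mice (−1.27, SE 0.31, edgeR adjusted p = 0.408). It was also lower in Cxcr6-positive CD4 cells, at 142 and 117 CPM against 27.0 and 6.70 CPM in FMT mice 1 and 2. In NK cells it was at 216 and 110 CPM against 46.9, 76.8 and 24.8 CPM. In naive CD8 cells the groups overlapped, at 34.7 and 24.6 CPM against 14.0, 27.9 and 7.06 CPM. In the members, groups did not overlap on the lower side for 2 of the 3 tested genes, Gpr65 among them, while Gpr132 overlapped, at 22.7 to 71.6 CPM.

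Other genes completed the lower side of the 10 smallest p-values. Bbc3, which encodes the cell death protein PUMA, was at 79.1 and 86.9 CPM in saline mice and at 37.9, 23.9 and 22.7 CPM in FMT mice. Apobec3, a restriction factor of retroviruses, was at 296 and 321 CPM against 192, 146 and 113 CPM. Their log2 fold changes were −1.46 and −1.02, and the edgeR adjusted p was 0.363 and 0.407. Tmem106b, Dnttip1 and Tmed7 were at −1.58, −1.21 and −1.19. For each of the 10 genes both saline mice lay above all FMT mice, which the choice by smallest p favours.

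**Figure D5:**
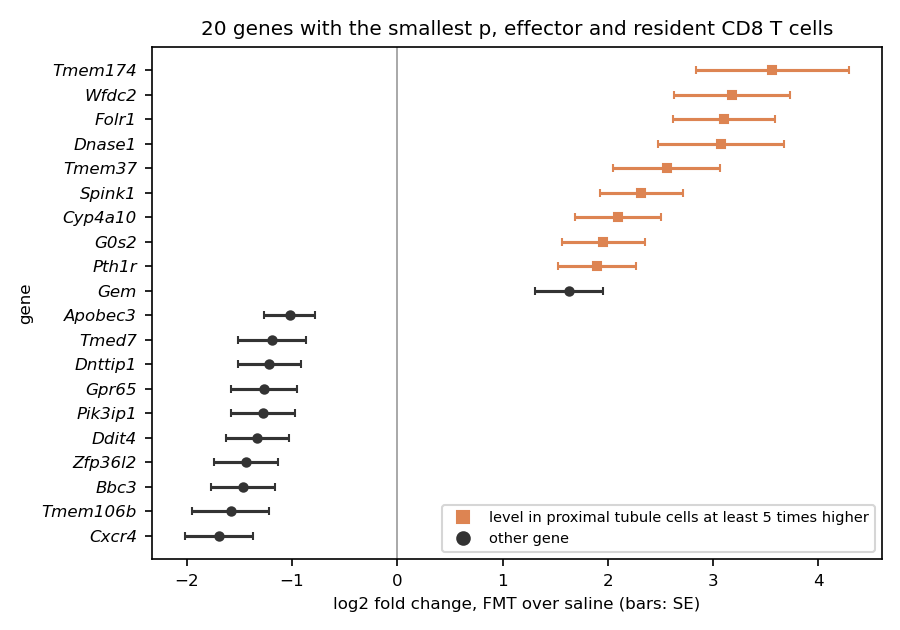
Log2 fold change of FMT over saline (bars, SE) for the 10 genes per direction with the smallest p and a mean of at least 30 CPM in effector and resident CD8 T cells. Of the 10 higher genes, 9 have levels at least 5 times higher in proximal tubule cells (orange squares), and Gem alone among these 10 does not, while the 10 lower genes are black circles. No gene shown passed the adjusted threshold.

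The higher side was led by tubule transcripts. Spink1, a secreted protease inhibitor, was at 151 and 72 CPM in saline members, at 778, 377 and 555 CPM in FMT members and at 3781 CPM in proximal tubule cells. Folr1, a folate receptor of the tubule, was at 12.4 and 3.00 CPM against 77.7, 81.2 and 51.0 CPM in the members. Among the listed tubule genes, all 16 tested were higher in FMT, by a median of 1.54, and 0 passed. The part of tubule RNA in the higher genes was not tested, and without the genes at least 5 times higher in tubule cells the test again called 0 genes. Gem, a small GTPase induced by activation, is no such gene. It was at 24.7 and 21 CPM in saline members and at 68.7, 78.8 and 73.6 CPM in FMT members (1.63, SE 0.32, edgeR adjusted p = 0.342).

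Cytotoxic effector genes lay higher in FMT for 13 of 17 tested members, by a median of 0.77, and 0 passed. The median was 0.34 without FMT mouse 2 and 0.38 without FMT mouse 1. Gzmb was at 170 and 102 CPM in saline mice and at 250.2, 566 and 125 CPM in FMT mice, and the groups overlapped (1.20, SE 0.53, edgeR adjusted p = 0.678). Tnf was at 22.2 and 33.0 CPM against 100.3, 43.0 and 119 CPM, and Lamp1, a protein of lytic granule membranes, at 88.9 and 114 CPM against 219, 165 and 164 CPM. Gzma, Tnf and Lamp1 were the 3 of 17 that lay higher in every FMT mouse. Nkg7, a granule protein, overlapped at 1835 to 3120 CPM, and Srgn, the granule proteoglycan, lay lower in every FMT mouse.

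Interferon response genes lay lower in FMT for 22 of 25 tested members, by a median of −0.33, with 0 calls and 5 of the 25 without overlap on that side. Ifi27l2a was at 2085 and 1367 CPM in saline mice and at 960.3, 1327 and 1031 CPM in FMT mice. Ifit3 was at 161 and 168 CPM against 83.1, 169.5 and 56.7 CPM. FMT mice 1 and 3 were low for Ifit3, and FMT mouse 2 was not. The interferon gamma receptor gene Ifngr1 was at 373 and 489 CPM against 238, 239 and 283 CPM.

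Naive and stem-like memory genes lay lower for 8 of 10 tested members, by a median of −0.47, and groups did not overlap on that side for 6. Foxp1, which keeps T cells quiescent, was at 143 and 159 CPM in saline mice and at 88.5, 95.5 and 113 CPM in FMT mice. Bcl2, a survival gene, was at 420.0 and 531 CPM against 311, 318 and 414 CPM. The value of FMT mouse 3, close to that of saline mouse 1, includes its myeloid member, and overlap without that cell was not tested. Cytokine receptor genes were lower for 12 of 14, by a median of −0.20, and cell cycle genes for 10 of 11, by −0.41. The cell cycle genes were highest in saline mouse 1, where Mki67 was at 61.8 CPM against 5.67 to 19.1 CPM in the other 4 mice, and without that mouse the median was 0.95.

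For most of the remaining lists the median lay within 0.2 of 0. Tissue residency genes were higher for 7 of 13, by a median of 0.05, circulation and tissue exit genes lower for 8 of 15, by −0.02, effector transcription factors lower for 7 of 14, by −0.04, and checkpoint genes lower for 5 of 8, by −0.11. Immediate early genes were lower for 10 of 17, by −0.06, T cell receptor signalling genes for 14 of 19, by −0.15, and MHC class I genes for 11 of 15, by −0.13. The series title names inosine, and purine, inosine and adenosine genes were higher for 6 of 9, by 0.16. Adora2a, the adenosine receptor that restrains T cells, was at 27.2 and 39.0 CPM in saline mice and at 49.7, 38.2 and 56.7 CPM in FMT mice. None of these lists had a call. NK receptor genes stood further off, higher for 6 of 7 by 0.56, but the median was 0.13 without the 8 members with myeloid UMIs. Heat shock genes, which respond to tissue dissociation, were lower for 6 of 10, by −0.11.

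Whether the members' change with FMT was unlike that of other T cells was tested with a term for class by treatment and the mouse as a block. Against naive CD8 cells, edgeR called 0% of 5705 genes, with 212 at an unadjusted p under 0.05. Against Cxcr6-positive CD4 cells, in the 4 mice with at least 20 cells of both classes, it called 5 of 5243 genes, or 0.0954%. These were Spink1, Spp2, Apoe, Lyz2 and Fcer1g. Spink1 and Spp2 are tubule genes, Lyz2 is a myeloid gene, Fcer1g a gene of NK and myeloid cells, and Apoe a lipid carrier gene of macrophages among other cells. With cells of at least 10 myeloid UMIs left out of both classes, Lyz2, Fcer1g and Apoe were not called (edgeR adjusted p = 0.865, 0.902 and 0.0599). The calls also varied when 1 mouse was left out, which leaves a single mouse in a group. Gzmb was short of the threshold, at a difference of 2.38 (SE 0.46, edgeR adjusted p = 0.0751).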

How the data were processed

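Raw UMI counts per gene and barcode were taken as deposited by the authors. Per the submitters' processing notes, Cell Ranger 2.1.1 and the build mm10 were used. Per the file headers, the matrices come from Cell Ranger 4.0.0, and the extraction text names a bulk kit. The files list 27998 genes. Members were chosen with the rule in the report, and the members, comparison classes and gene lists were chosen with earlier results of these data known, some of them on T cells that include these members. UMIs were summed per mouse and class, and CPM is per 1000000 UMIs of that sum. Genes were tested with edgeR 4.0.16 (quasi-likelihood F test, TMM scaling, filter by expression, Benjamini-Hochberg over all genes, threshold 0.05) in R 4.3.3, with the alternative DESeq2 1.42.0. Shares were tested with 2-sided exact permutation tests over mice. Statistics used Python 3.11.15, scipy 1.17.1 and scanpy 1.11.5 (Scrublet). The tests were tested on simulated data.

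Labels do not say whether libraries came from separate preparations, so p-values measure the spread between these 5 libraries, and no 2 of them agreed within sampling noise. Libraries held 15333445 to 45309178 UMIs. Named genes were the 10 smallest p per direction with at least 30 CPM, up to 4 of each list by level, and identity genes. Other list members and the genes of the splits were named after their values were seen. Doublets were left in, and an alternative without the highest Scrublet scores is in the closing section. Reads of overlapping or near-identical genes, such as Hba-a1 and Hba-a2 or H2 genes, may have been split in counting. Results for some genes are not reported here.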

Additional observations from a re-analysis of the deposited data

Results flagged for a closer look

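In 5 genes the change with FMT differed between the effector CD8 cells and the Cxcr6-positive CD4 cells of the same 4 mice (FMT mouse 3 had 2 such CD4 cells and was left out). The difference, in log2 units and with positive values meaning more FMT over saline in the CD8 cells, was 2.48 for Spink1, 2.72 for Spp2, 1.99 for Apoe, 6.81 for Lyz2 and 6.17 for Fcer1g, with edgeR adjusted p of 0.00142, 0.0184, 0.0307, 0.00549 and 0.00432. Spink1 was at 553 and 234 CPM in the saline CD4 cells and 444 and 248 CPM in FMT mice 1 and 2, where the CD8 members went from 151 and 72 to 778 and 377 CPM. Fcer1g was at 138 and 149 CPM in the saline CD4 cells and 3.86 and 0 CPM in FMT mice 1 and 2, against 203 and 95.9, then 315 and 43.0 CPM, in the CD8 members. A further fit left out cells with at least 10 myeloid UMIs from both classes. There Fcer1g, Lyz2 and Apoe were at 2.00, 2.70 and 1.69 with edgeR adjusted p of 0.902, 0.865 and 0.0599. Spink1 and Spp2 were at 2.50 and 2.69 with 0.00024 and 0.0158. In that setting Gzmb (2.47, adjusted p = 0.049), Ndrg1 and Gpx3 were called as well. Over the 4 fits that leave out 1 mouse, Spink1 had an adjusted p of 1.385e-08 to 0.00997, while Fcer1g and Lyz2 lost their calls without FMT mouse 1, and Spp2 and Apoe without FMT mouse 1 or FMT mouse 2.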

How the results depend on the processing

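The count of genes called between FMT and saline was 0 in the main test and in most alternatives, 2 with DESeq2 and 259 without the filter on low counts, of which 171 were at least 5 times higher in proximal tubule cells. Leaving out 1 mouse gave 0 to 83, with 83 without FMT mouse 2, 66 of them such tubule genes. The replicate block gave 0 calls; replicate numbers correlated at 0.0589 and 0.131, with 2 shared numbers only, so they were not taken as pairs.

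Against naive CD8 cells the count was 28 without the filter and 0 to 3 when 1 mouse was left out. Against CD4 cells it was 44 without the filter and 4 to 58 when 1 mouse was left out, with 58 without saline mouse 1 and 16 without saline mouse 2, fits in which the lone saline mouse is assumed to vary like the FMT mice. The causes were not tested.

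The difference of the share among CD8 T cells was 1.14 points with mitochondrial UMIs under 20%, 0.770 with at least 2 Cd8a and Cd8b1 UMIs, and −2.97 to 2.83 when 1 mouse was left out. The share of kept cells differed by −0.209 to 0.90 in that way.

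Differences in shares of cells with a subset gene, with too few mice for any call, turned as follows. Gzmk was at −0.795 with all UMIs, −6.47 at 1000 UMIs, −1.48 without the highest Scrublet scores, −3.03 with mitochondrial UMIs under 20% and −5.54 to 3.06 leaving out 1 mouse. Itgae was at 0.752 without the Scrublet scores, 0.703 without the myeloid members and −1.93 to 1.41 leaving out 1 mouse. Cd69 was at 0.509 without the myeloid members. Pdcd1 was at −0.724 with mitochondrial UMIs under 20% and −1.93 to 4.25 leaving out 1 mouse. Depth limits these shares, since 39 members lie under 1500 UMIs. The setting without myeloid members was chosen after seeing the data.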
